A study of Mus musculus with 18 samples.

Results

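The clustered protocadherins are cell-surface adhesion proteins encoded by the alpha (Pcdha), beta (Pcdhb) and gamma (Pcdhg) gene clusters, which lie side by side on chromosome 18 in the mouse. All genes whose symbol begins with Pcdha, Pcdhb or Pcdhg followed by a cluster number or a letter-number name were taken. There were 58 of them (14 alpha, 22 beta and 22 gamma) among the 20878 genes measured. Within the family, membership was decided by the symbol only.

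RNA was sequenced from 18 tumors grown from K7M2 cells, a mouse osteosarcoma line of Balb/c origin. Cells carried a control shRNA (ATRX CT) or an shRNA against Atrx (ATRX KD), and were grafted into 6- to 8-week-old female Balb/cJ mice, in which the cells are syngeneic, or NSG mice (NOD.Cg-Prkdc scid Il2rg tm1Wjl/SzJ), which lack T, B and NK cells. The groups were Balb/c CT (mice 41, 43, 44 and 45), Balb/c KD (mice 56, 58, 59 and 60), NSG CT (mice 1 to 5) and NSG KD (mice 26 to 30). Each tumor came from its own animal, whole cages were assigned to one kind of cells, and the time of collection is not given per tumor, so cage and knock-down cannot be told apart.

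In the alpha and gamma clusters, each gene has its own large first exon with its own promoter, which is spliced to 3 exons shared by the whole cluster. The first exon encodes the extracellular cadherin repeats and the shared exons the cytoplasmic end. Beta genes have a single exon and lack the shared cytoplasmic part. In neurons each cell switches on a few variable promoters, chosen through DNA methylation, CTCF binding and cohesin, and the resulting set of isoforms gives the cell a surface identity used in self-recognition of its branches. The C-type isoforms (Pcdhac1, Pcdhac2, Pcdhgc3, Pcdhgc4 and Pcdhgc5) lie at the end of the alpha and gamma clusters and are less subject to this choice. Atrx encodes a chromatin remodeller that, with Daxx, deposits histone H3.3 in heterochromatin.

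In the annotation of mm10 (plus strand), the alpha members ran from chr18:36930285-37187661, the beta members from chr18:37264998-37521419 and the gamma members from chr18:37661945-37841873. The shared exons made up 2864 nt of each alpha transcript (52.8% to 55.0% of its length) and 2119 nt of each gamma transcript (41.7% to 47.3%). Reads in them fit every member, so the split of these reads among alpha or gamma members is an estimate of the quantification program. Beta members overlapped less. The beta member with the most stretches of 75 nt found in another beta transcript was Pcdhb21, with 8.96% of its stretches, against 17.0% to 64.7% for gamma members. The 17.0% was that of Pcdhgb8, whose matched reference transcript was short (2722 stretches, other gamma members 4587 to 5006). The next lowest gamma member was Pcdhga12, with 41.0%.

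The values are FPKM, fragments scaled to transcript length and to library size, so levels of different genes can be compared per length. The estimated depth was 14650000 to 25000000 fragments per library (median 20425000), and between 16106 and 18206 genes were above 0. In 6 of the 18 libraries (Balb/c CT mice 43 and 45, Balb/c KD mice 56 and 60, NSG CT mouse 3 and NSG KD mouse 27) long transcripts read higher relative to short ones, with a slope over 0.1 log2 per doubling of length, from 0.10 to 0.21. Slopes the other way reached -0.15 (NSG CT mouse 4) and -0.12 (Balb/c KD mouse 59). Runs limited to libraries with a slope of at most 0.1 kept these. Atrx itself, the target of the knock-down, read 10.3 to 26.0 FPKM in Balb/c CT and 7.88 to 21.5 FPKM in Balb/c KD tumors, which overlapped (log2 fold change -0.34 ± 0.36 SE, limma adjusted p = 0.999). In NSG mice Atrx read 11.6 to 24.4 FPKM in CT tumors and 8.42 to 16.4 FPKM in KD tumors, which overlapped through mouse 27 only (log2 fold change -0.74 ± 0.22 SE, limma adjusted p = 0.061). With the trend along transcript length removed, NSG tumors read 14.9 to 20.5 FPKM (CT) and 9.64 to 13.6 FPKM (KD), without overlap. Balb/c CT (12.4 to 18.8 FPKM) and KD tumors (9.49 to 14.3 FPKM) then still overlapped. Atrx RNA thus gave no check of the KD label in Balb/c tumors.

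The 3 clusters were expressed at very different levels, and only the gamma cluster was present as a whole. Alpha members were at or near 0 in every tumor. Beta members were low at the start of their cluster and higher at its end. In the gamma cluster a single gene, Pcdhgc3, exceeded every other member of the family.

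**Figure D1:**
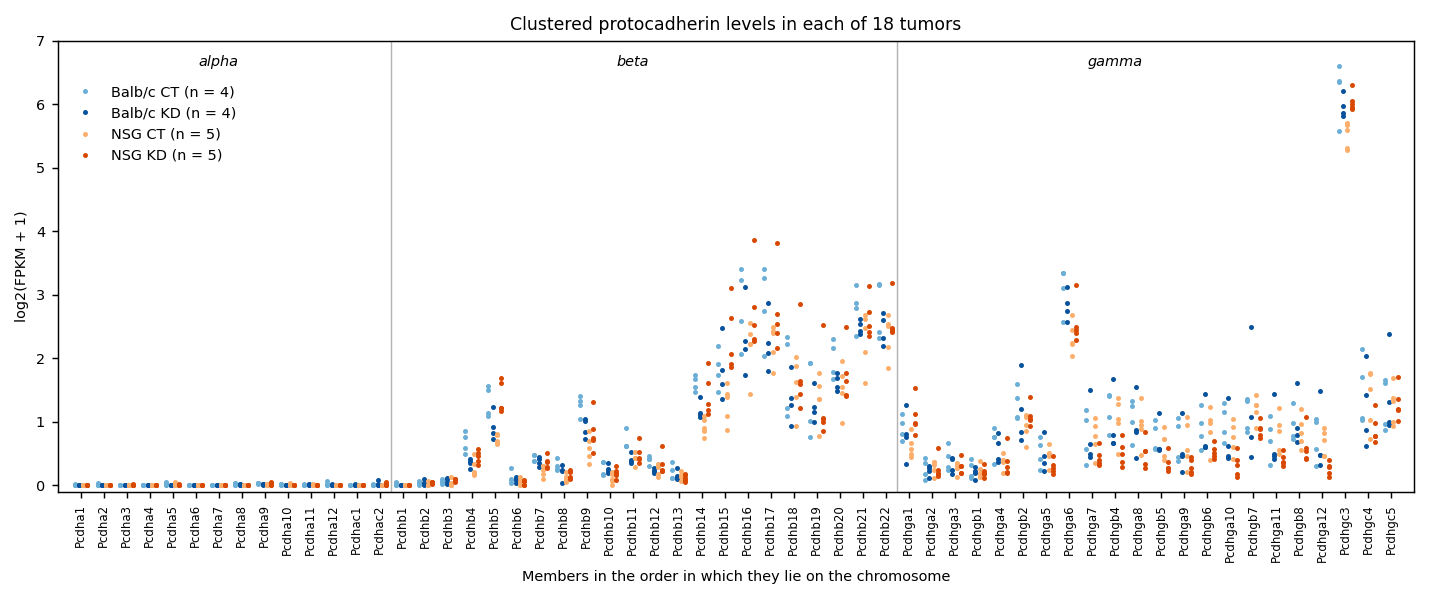
Level of each of the 58 members in each of the 18 tumors, as log2(FPKM + 1), with members in their order along the chromosome and colours for the 4 groups. The alpha members lie at 0, beta members rise from Pcdhb14 onwards, and Pcdhgc3 is the highest member in every tumor (37.7 to 95.8 FPKM).

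Alpha members encode isoforms that carry the alpha cytoplasmic end. None of the 14 reached a mean of 0.1 FPKM over the 18 tumors. The highest value of any alpha member in any tumor was 0.055 FPKM, for Pcdhac2 in the Balb/c KD tumor of mouse 58. A floor of 3 fragments corresponds to 0.0236 to 0.0402 FPKM for Pcdha1, depending on the depth of the library, and covers counting error only. Of the 252 alpha values, 6 were above their floor and 123 were listed at 0, and 10 of the 14 members were above the floor in no tumor. Pcdha9 and Pcdhac2 were above it in 2 tumors each and Pcdha5 and Pcdha12 in 1 each. The C-type Pcdhac1 was at most 0.0147 FPKM. Summed over the cluster, alpha values ran from 0 FPKM in the NSG KD tumor of mouse 29 to 0.147 FPKM in the Balb/c CT tumor of mouse 43. None of the alpha members was tested between groups, because none passed the filter on low values.

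Beta members followed their position. Of the 13 genes from Pcdhb1 to Pcdhb13, 9 reached a mean of 0.1 FPKM and only Pcdhb5 reached 1 FPKM (mean 1.18). The median of their means was 0.151 FPKM. Pcdhb1, the first of the cluster, was listed at 0 in 16 of 18 tumors, and was above its floor in none. All 9 genes from Pcdhb14 to Pcdhb22 had a mean over 1 FPKM, with a median of 2.76. Pcdhb16 (5.2 FPKM), Pcdhb17 (5.15), Pcdhb21 (4.99) and Pcdhb22 (4.96) were the highest 4 by mean over 18 tumors. The split after Pcdhb13 was drawn after the values were seen.

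Within the gamma cluster all 22 members were above the floor in all 18 tumors. Pcdhgc3, a C-type isoform found in many tissues besides neurons, had a mean of 61.4 FPKM and ranked 1627th of the 20878 genes. This was 11 times the mean of the next member, Pcdhga6 (5.6 FPKM), and Pcdhgc3 supplied from 57.6% to 83.5% of the summed gamma FPKM of a tumor. The other C-type isoforms, Pcdhgc5 and Pcdhgc4, had means of 1.57 and 1.48 FPKM. Pcdhgb7 (1.24 FPKM) came next. Among the 12 A-type members, Pcdhga6 stood apart, because the other 11 had means of 0.202 to 0.843 FPKM. The gamma C-type and A-type members share the same last exons, so only reads of the first exon tell them apart.

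**Figure D2:**
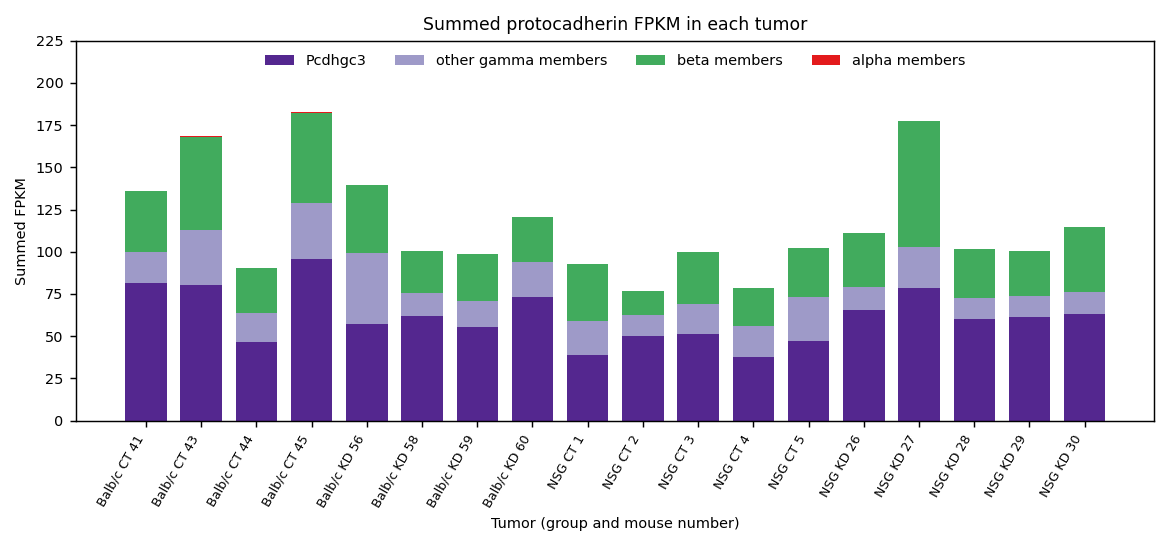
Summed FPKM of Pcdhgc3, the other gamma members, the beta members and the alpha members in each of the 18 tumors (stacked bars, labelled with group and mouse number). Pcdhgc3 is the largest block in all 18 bars, and the NSG KD tumor of mouse 27 has the largest beta block (74.9 FPKM).

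The tumors are mixtures of grafted and host cells, in which fewer cells of a type and less RNA per cell cannot be told apart. Summed over the cluster, beta members gave 43.0 ± 14 FPKM (SD, n = 4) in Balb/c CT, 30.0 ± 7.10 (n = 4) in Balb/c KD, 26.2 ± 7.60 (n = 5) in NSG CT and 40.3 ± 19.9 FPKM (n = 5) in NSG KD tumors. The gamma sums were 101 ± 27.6, 84.8 ± 13.9, 63.9 ± 7.20 and 80.8 ± 12.4 FPKM in the same order. Beta and gamma sums were thus lower in KD than in CT tumors of Balb/c mice and higher in KD than in CT tumors of NSG mice, and the groups overlapped in both hosts. Without Pcdhgc3, the gamma sum was 18.9 ± 4.90 FPKM in NSG CT and 15.1 ± 5.09 FPKM in NSG KD tumors.

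Single tumors moved many members together. The NSG KD tumor of mouse 27 was the highest of its 5 for 17 of 18 beta and 21 of 22 gamma members with a mean of at least 0.1 FPKM, whereas it was the highest for 27.1% of all genes. The Balb/c KD tumor of mouse 56 was the highest of its 4 for 19 of 22 gamma and 11 of 18 beta members, against 32.5% of all genes. The NSG CT tumor of mouse 2 was the lowest of its 5 for 13 beta and 14 gamma members, against 20.7% of all genes. The libraries of mice 27 and 56 are among the 6 with a slope over 0.1 along transcript length. With the trend along length removed, the beta sum of mouse 27 was still 72.4 FPKM, against 27.4 to 38.4 FPKM in the other 4 NSG KD tumors. The gamma sum of mouse 56, the highest of its group at 99.3 FPKM, was then 85.8 FPKM, below that of mouse 60 (87.0 FPKM). This sum is mostly Pcdhgc3, for which mouse 56 was then the lowest of its group (49.4 FPKM, others 59.8 to 68.1). Mouse 56 was also the lowest for Pcdhga1 (0.227 FPKM, others at least 0.752). It stayed far above the others for Pcdhga11 (1.46 FPKM, others 0.346 to 0.439) and Pcdhgb4 (1.91 FPKM, others 0.609 to 0.691).

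The comparison of ATRX KD with ATRX CT tumors in NSG mice asks what the knock-down does where T, B and NK cells are missing. Genes were called at a limma adjusted p under 0.05 with at least a 2-fold change on the log2(FPKM + 1) scale. A gene averaging under 1 FPKM in CT tumors could not be called lower, as a fall to 0 stays under 2-fold here. In NSG mice 38 members passed the filter on low values (16 beta and 22 gamma), and 1 was called, where 0.464% of all genes tested were. Of these 38, 16 averaged at least 1 FPKM over the NSG tumors. On the adjusted p alone, Pcdhb5, Pcdhb15 and Pcdhgc3 rose, where 3.73% of all genes tested did, and Pcdhga12 fell, where 3.05% did. These 3 risers and Pcdhb14 were higher in KD tumors without overlap (4.36% of all genes), and Pcdhga12 was lower without overlap (3.14%).

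Pcdhb15, the called gene, encodes a beta isoform. It read 2.06, 0.827, 1.61, 1.14 and 1.71 FPKM in the CT tumors of mice 1 to 5. In the KD tumors of mice 26 to 30 it read 2.74, 7.56, 3.20, 2.63 and 5.2 FPKM. All KD tumors were above all CT tumors, and mouse 27 was the highest. The log2 fold change was 1.03 ± 0.24 (SE), with a limma adjusted p of 0.031 and an exact permutation p of 0.0079, the smallest that 252 arrangements allow. That permutation p follows from the lack of overlap. The call was lost without NSG CT mouse 1, 2, 4 or 5 or NSG KD mouse 27, 28 or 30, with log2 fold changes from 0.84 to 1.15 over all 10 tumors left out in turn.

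Pcdhb5 lies near the start of the beta cluster. Its CT values were 0.572, 0.590, 0.735, 0.626 and 0.743 FPKM and its KD values 1.32, 2.22, 1.25, 1.33 and 2.06 FPKM in the same order of mice. The CT tumors were close together and every KD tumor lay above them. The log2 fold change was 0.66 ± 0.11 (SE, limma adjusted p = 0.014), and the adjusted p stayed between 0.011 and 0.043 when each tumor was left out.

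Pcdhgc3 read 38.8, 49.9, 51.1, 37.7 and 47.1 FPKM in NSG CT and 65.5, 78.3, 59.9, 61.4 and 63.1 FPKM in NSG KD tumors. The groups did not overlap. The log2 fold change was 0.54 ± 0.11 (SE, limma adjusted p = 0.022). The adjusted p ran from 0.013 to 0.062 when each tumor was left out, and was over 0.05 without NSG CT mouse 1 (0.057) or 4 (0.057) or NSG KD mouse 30 (0.062), and with all 4 groups in 1 fit (0.052). Its share of the gamma sum was 70.4% ± 6.51 (SD, n = 5) in CT and 81.6% ± 2.94 (n = 5) in KD tumors, and these shares overlapped.

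Pcdhga12, the last A-type gene before the C-types, went the other way. It read 0.775, 0.375, 0.368, 0.630 and 0.862 FPKM in CT and 0.236, 0.310, 0.0947, 0.221 and 0.143 FPKM in KD tumors. Every KD tumor lay below every CT tumor, although all these values are under 1 FPKM. The log2 fold change was -0.41 ± 0.10 (SE, limma adjusted p = 0.037). The adjusted p was over 0.05 without NSG CT mouse 1, 4 or 5 or NSG KD mouse 28, 29 or 30, with a range of 0.018 to 0.11 over all tumors left out, and was 0.20 with all 4 groups in 1 fit.

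**Figure D3:**
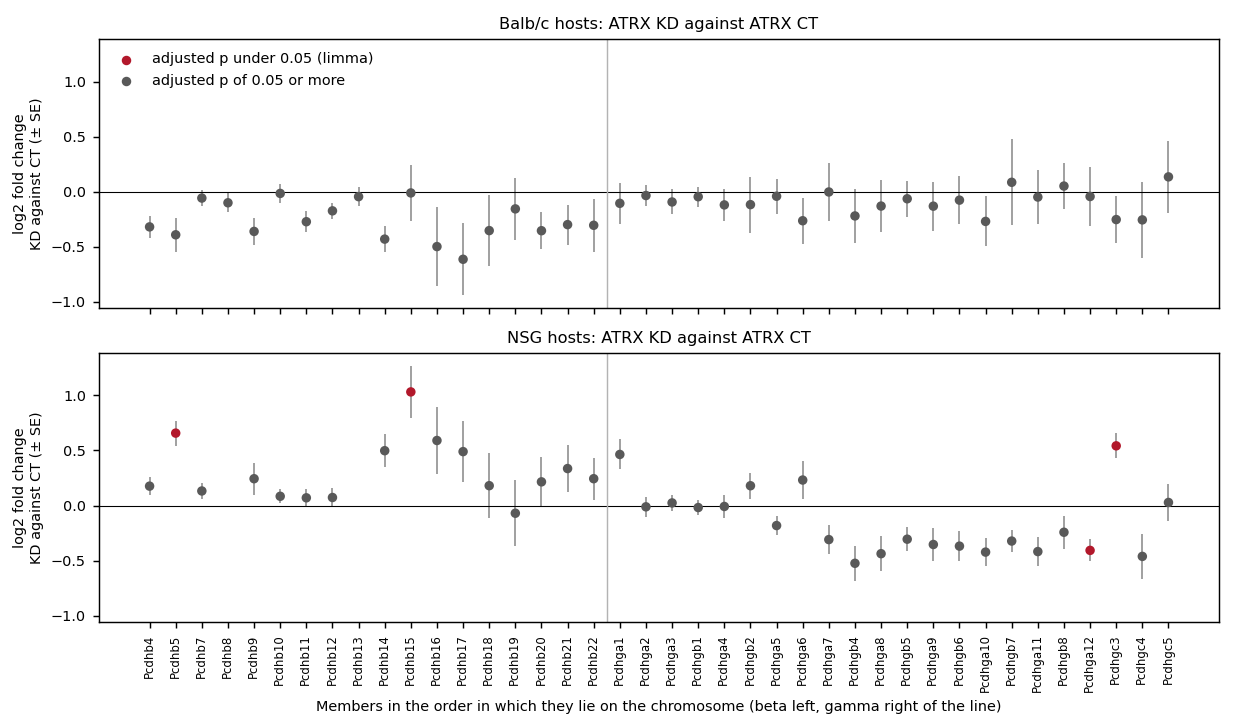
Log2 fold change of KD against CT tumors (± SE) for each beta and gamma member tested, in Balb/c hosts (top) and NSG hosts (bottom), in the order along the chromosome; red marks an adjusted p under 0.05. In NSG hosts 15 of 16 beta members lie above 0 and 12 of the 13 gamma members from Pcdhga5 to Pcdhga12 lie below it, and in Balb/c hosts 37 of 40 members lie below 0. Pcdhb8 and Pcdhb13 were not tested in NSG hosts.

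Along the locus, the differences in NSG mice changed sign. Of the 16 beta members tested, 15 were above 0, where 49.8% of all genes tested were, with a median of 0.23. Of the 22 gamma members, 16 were below 0, where 50.2% of all genes were, with a median of -0.27. The median of all genes tested was -0.0014. Among the gamma C-types, Pcdhgc3 rose on the adjusted p, Pcdhgc4 stood at -0.46 ± 0.20 (SE, limma adjusted p = 0.17) and Pcdhgc5 at 0.03 ± 0.16 (adjusted p = 0.94).

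Of the 13 genes from Pcdhga5 to Pcdhga12, a stretch chosen after its values were seen, 12 were below 0 and Pcdhga6 was at 0.23. The median of the 13 was -0.35, and Pcdhgb4 had the largest difference (-0.52 ± 0.16 SE, limma adjusted p = 0.067). At an unadjusted p under 0.05, 11 gamma members were lower and 2 higher (Pcdhga1 and Pcdhgc3), and 3 beta members were higher (Pcdhb5, Pcdhb14 and Pcdhb15), where 12.5% of all genes tested were lower and 13.8% higher. Without the tumor of mouse 27 the counts were 13 lower and 2 higher gamma members and 3 higher beta members, and the median of the beta members tested was 0.12.

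In Balb/c mice the same comparison asks for the effect of the knock-down with an intact immune system. Of 40 members tested (18 beta and 22 gamma), 0 were called, and 0.0068% of all genes tested were. Of the 40, 20 averaged at least 1 FPKM over the Balb/c tumors. A lower call was out of reach for members under 1 FPKM in CT tumors. At an unadjusted p under 0.05 there were 6 lower and 0 higher members, where 2.42% of all genes tested were lower and 1.72% higher. All 6 were beta members, namely Pcdhb4, Pcdhb5, Pcdhb9, Pcdhb11, Pcdhb12 and Pcdhb14. Their limma adjusted p-values ran from 0.65 to 0.999. The count of lower members was 10 without the CT tumor of mouse 44. It was 4 without the CT tumor of mouse 43 or the KD tumor of mouse 58 or 60. With only libraries of a slope of at most 0.1 it was 2 of 38. Over all genes the lower counts in these runs were 510, then 249, 315 and 330, then 413, against 356 as reported.

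Pcdhb14, which had the smallest adjusted p, read 1.93, 2.2, 1.77 and 2.32 FPKM in the CT tumors of mice 41, 43, 44 and 45. It read 1.63, 1.10, 1.19 and 1.15 FPKM in the KD tumors of mice 56, 58, 59 and 60. The groups did not overlap (log2 fold change -0.43 ± 0.12 SE, limma adjusted p = 0.65). Groups without overlap were seen for 5 members, all lower in KD tumors, where 1.93% of all genes tested were lower without overlap. The exact permutation p of each was 0.0286, the smallest that 70 arrangements allow. It follows from the lack of overlap by which they were picked and is no separate support.

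The largest differences in Balb/c mice belonged to Pcdhb17 (-0.61 ± 0.33 SE) and Pcdhb16 (-0.50 ± 0.36), and the largest upward ones to Pcdhgc5 (0.13 ± 0.33) and Pcdhgb7 (0.08 ± 0.39), all with a limma adjusted p of 0.999. Over all members, 37 of 40 differences were below 0, with a median of -0.13, where 50.8% of all genes tested were below 0. Single libraries moved this tally, to 28 of 40 (median -0.064) without the CT tumor of mouse 43, to 29 of 40 (median -0.070) without the CT tumor of mouse 45 or the KD tumor of mouse 58, and to 39 of 40 without the CT tumor of mouse 41 (median -0.20) or the KD tumor of mouse 56 (median -0.29). Pcdhgc3 read 81.5, 80.2, 46.8 and 95.8 FPKM in CT and 57.2, 61.9, 55.3 and 73.3 FPKM in KD tumors. Its groups overlapped through the CT tumor of mouse 44 (log2 fold change -0.25 ± 0.21 SE, limma adjusted p = 0.999).

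**Figure D4:**
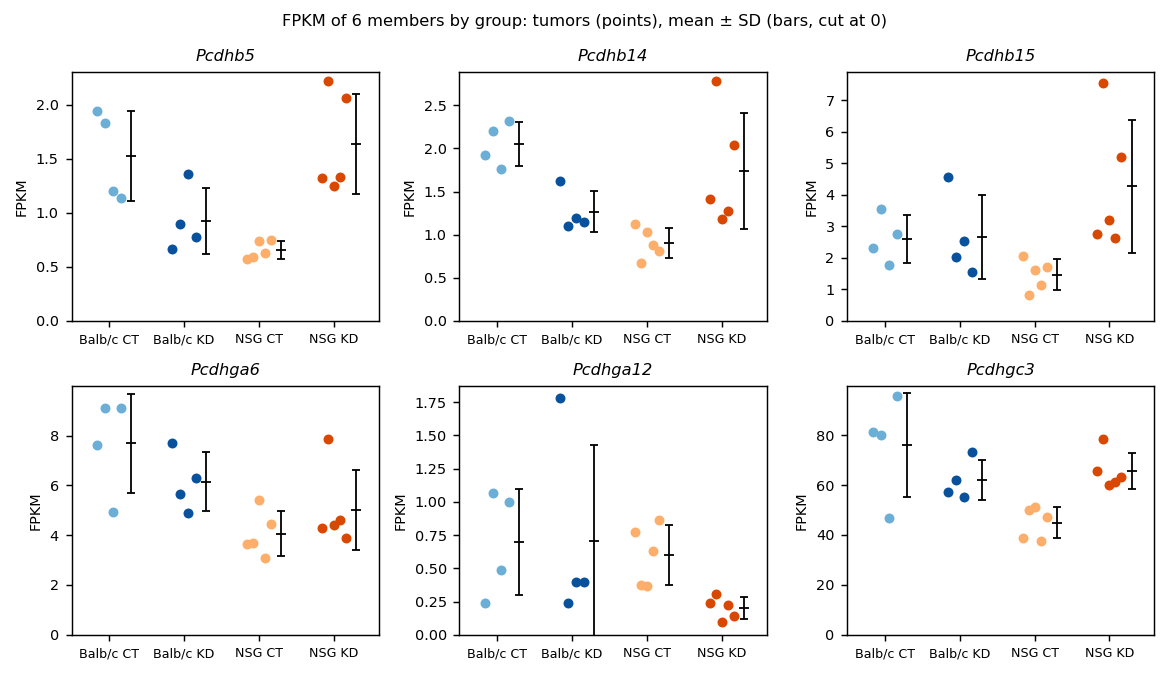
FPKM of 6 members in each tumor (points) with the mean ± SD of each group (bars, cut at 0): Pcdhb5, Pcdhb14, Pcdhb15, Pcdhga6, Pcdhga12 and Pcdhgc3, on linear axes that start at 0. For Pcdhb14, all KD tumors lie below the CT tumors in Balb/c mice and above them in NSG mice.

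Whether the knock-down effect differed between hosts was tested as an interaction over all 4 groups. Of 40 members, 0 were called, as were 0.0% of all genes tested. At an unadjusted p under 0.05, 12 members had a lower effect in Balb/c than in NSG mice and 0 a higher one, where 5.86% of all genes were lower and 4.45% higher. The 12 were 10 beta members, Pcdhga1 and Pcdhgc3. The count of lower effects was 7 without the Balb/c CT tumor of mouse 45. It was 14 without Balb/c CT mouse 44, NSG CT mouse 1 or NSG KD mouse 28. Over all genes the lower counts in these runs were 692, then 1204, 665 and 706, against 868 as reported. Every one of the 18 beta members tested was below 0, where 49.4% of all genes were.

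The largest differences of effect were those of Pcdhb17 (-1.10 ± 0.45 SE, limma adjusted p = 0.42) and Pcdhb16 (-1.09 ± 0.50, adjusted p = 0.46). Pcdhb5 had the smallest adjusted p (-1.05 ± 0.19, adjusted p = 0.15), and Pcdhgc3 stood at -0.80 ± 0.24 (adjusted p = 0.28). Upward, Pcdhgb7 (0.41 ± 0.40, adjusted p = 0.78) and Pcdhga11 (0.37 ± 0.28, adjusted p = 0.71) led. With library weights and a robust prior, Pcdhb5 was the 1 member called (-1.06, limma adjusted p = 0.0076), among 195 of 14803 genes called under that setting.

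The hosts were also compared for each kind of cells. This asks how a graft of the same cells differs between an immunocompetent and an immunodeficient mouse. These comparisons share their CT or KD tumors with those above. In CT tumors, 0 of 40 members were called, where 1.43% of all genes tested were, and 14 were higher in Balb/c mice at an unadjusted p under 0.05, where 11.5% of all genes were. On the adjusted p alone 3 were higher, where 2.09% of all genes were, namely the beta members Pcdhb5, Pcdhb9 and Pcdhb14.

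Pcdhb9 read 1.66, 1.51, 1.41 and 1.05 FPKM in Balb/c CT tumors and 0.810, 0.379, 0.620, 0.503 and 0.262 FPKM in NSG CT tumors. There was no overlap (log2 difference 0.67 ± 0.12 SE, limma adjusted p = 0.014). The difference was 0.68 ± 0.11 for Pcdhb14 (limma adjusted p = 0.0048) and 0.60 ± 0.12 for Pcdhb5 (adjusted p = 0.020), also without overlap. In all, 7 members were higher in Balb/c mice without overlap, where 4.72% of all genes tested were, and each of them was a beta member. In Balb/c CT tumors the libraries with a slope over 0.1 along transcript length (mice 43 and 45) had beta sums of 53.8 and 55.3 FPKM and the other 2 had 26.6 and 36.1 FPKM. With the length trend removed, all 3 kept a limma adjusted p under 0.05 (0.0049 to 0.021). With only libraries of a slope of at most 0.1, Pcdhb9 (0.78, adjusted p = 0.049) kept it and Pcdhb14 (0.61, 0.062) and Pcdhb5 (0.64, 0.068) did not.

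The largest differences between hosts in CT tumors were those of Pcdhga6 (0.77 ± 0.19 SE, limma adjusted p = 0.063) and Pcdhgc3 (0.71 ± 0.20, adjusted p = 0.090). Pcdhga6 read 7.69 ± 1.98 FPKM (SD, n = 4) in Balb/c and 4.06 ± 0.909 FPKM (n = 5) in NSG mice. The lowest differences were close to 0, at -0.09 for Pcdhgb7 and -0.07 for Pcdhga11. The difference was above 0 for 36 of 40 members, where 51.3% of all genes tested were, and this tally depended on a few libraries. The members below 0, here 4, were 13 of 40 without the Balb/c CT tumor of mouse 43 or of mouse 45, 18 of 40 with library weights, and 18 of 38 with only libraries of a slope of at most 0.1 (median 0.05).

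In KD tumors 0 of 39 members were called, where 1.39% of all genes tested were. The 4 extremes were Pcdhb15 (-0.50 ± 0.30 SE) and Pcdhb17 (-0.48 ± 0.33), lower in Balb/c mice, and Pcdhgb4 (0.45 ± 0.20) and Pcdhga12 (0.43 ± 0.21), higher there, with limma adjusted p-values from 0.31 to 0.51. At an unadjusted p under 0.05, 1 member was lower (Pcdhb5) and 1 higher (Pcdhgb5), where 6.5% and 9.93% of all genes were. The higher members were 8 of 40 without the Balb/c KD tumor of mouse 58 and 7 of 39 without the NSG KD tumor of mouse 27. Over all genes, 1466 of 14657 and 1474 of 14682 were higher in these runs, against 1457 of 14669 as reported. In 0 members did the hosts not overlap, against 8.13% of all genes. Pcdhgc3 was 61.9 ± 8.07 FPKM (SD, n = 4) in Balb/c and 65.7 ± 7.39 FPKM (n = 5) in NSG mice, a log2 difference of -0.08 ± 0.12 SE.

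Genes around the family were read from further lists. Among the 12 delta and other non-clustered protocadherins, single genes outside the clusters, Pcdh19, Pcdh1, Pcdh18 and Pcdh7 were the highest, with group means of 20.1 to 28.8, 12.2 to 25.3, 11.7 to 17.3 and 3.96 to 9.16 FPKM. Pcdh8, Pcdh9 and Pcdh11x were at or under 0.0135 FPKM in every group mean. None of this list was called in any comparison. In NSG KD tumors 4 of 8 tested were higher at an unadjusted p under 0.05 and 0 lower (13.8% and 12.5% of all genes), and Pcdh1 passed the adjusted p alone (log2 fold change 0.58 ± 0.15 SE, limma adjusted p = 0.044).

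The regulators of the clusters include Ctcf, the cohesin subunits, Smchd1, the Dnmt3 methyltransferases and Setdb1. Of the 30 genes, 29 were tested and 0 were called in any comparison. Ctcf, which brings promoters and enhancers of the clusters together, was at 23.7 to 30.0 FPKM in the group means and Smchd1, a silencer of the clusters, at 23.7 to 30.6 FPKM. In NSG KD tumors 4 were lower and 4 higher at an unadjusted p under 0.05, near the shares over all genes (12.5% and 13.8%), with a median of 0.05, and Kdm1a, a histone demethylase, passed the adjusted p alone (0.33 ± 0.07 SE, limma adjusted p = 0.026). In Balb/c KD tumors 0 were lower or higher at this p.

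Among the 24 signalling and processing partners, which include Fyn, Ptk2, the WAVE complex and the proteases Adam10 and presenilin, 0 were called in any comparison. Ptk2, the focal adhesion kinase that binds the shared cytoplasmic end, was higher in NSG KD tumors by 0.27 ± 0.07 SE (limma adjusted p = 0.045). Cyfip2, a subunit of the WAVE complex, was higher in Balb/c than in NSG mice, by 0.78 ± 0.12 in CT tumors (limma adjusted p = 0.0055) and by 0.83 ± 0.17 in KD tumors (adjusted p = 0.026).

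Single-copy genes that flank the clusters on the same chromosome were read as neighbours, 25 of 26 being in the matrix. Gnpda1, an enzyme of glucosamine metabolism, was the only gene called, in KD tumors between hosts (22.4 against 9.82 FPKM, log2 difference 1.08 ± 0.16 SE, limma adjusted p = 0.0040). In NSG KD against CT tumors 3 neighbours were lower and 8 higher at an unadjusted p under 0.05, with a median of 0.06, where 12.5% and 13.8% of all genes were. In Balb/c mice 0 of 24 passed this p in either direction, where 2.42% and 1.72% of all genes did. In NSG KD against CT tumors the largest difference among the neighbours was that of Pcdh1, followed by Slc35a4 (0.52 ± 0.12 SE, limma adjusted p = 0.026). Classical cadherins, 18 genes, had 0 calls in any comparison.

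The defining markers of neurons, in which the clusters are best known, were near 0. Snap25 and Syt1 were at most 0.0128 FPKM in a group mean, Rbfox3 at most 0.0198, and Elavl4 was listed at 0 in all NSG tumors. Stmn2 (at least 2.22 FPKM in every group mean) and Tubb3 (at least 9.37 FPKM) were not, and the list of 16 markers summed to 18.7 to 55.7 FPKM over the tumors. Of these markers, 8 were tested, and Tubb3, which is not restricted to neurons, was the only call (higher in Balb/c than in NSG CT tumors by 1.05, limma). Of the Schwann cell markers, 13 genes, 0 were called in any comparison, and Sox10 was at most 0.0606 FPKM in a group mean. Of the osteoblast markers, the bone collagen genes and Sparc were high (Col1a1 95.3 to 226 FPKM), whereas Sp7 and Ibsp were near 0 and 0 of 12 were called.

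Beside the differences of the members in NSG mice, markers of host cells also moved. Of 12 endothelial markers, 10 were higher and 0 lower in NSG KD than in CT tumors at an unadjusted p under 0.05 (13.8% and 12.5% of all genes), with a median of 0.66 and 0 calls, and the list summed to 34.4 to 80.7 FPKM in CT and 68.0 to 95.7 FPKM in KD tumors. Of 12 macrophage markers, 11 were lower and 1 higher, with a median of -0.55 and 0 calls. Of the pericyte and smooth muscle markers 1 was called (Mcam, 1.06). The macrophage list summed to 3275 to 4518 FPKM in CT and 2104 to 3699 FPKM in KD tumors. T cell markers differed between hosts, with 9 of 11 tested called higher in Balb/c CT tumors and 10 of 11 in Balb/c KD tumors. Of all genes tested, 1.43% and 1.39% were called in either direction. In Balb/c against NSG CT tumors 9 of 12 endothelial markers were higher at this p (11.5% of all genes) and Pecam1 was called (1.14). In KD tumors between hosts Cldn5 (1.17) and the pericyte marker Kcnj8 (1.22) were called. In Balb/c KD against CT tumors, 4 of 12 endothelial markers were higher and 0 lower at an unadjusted p under 0.05, where 1.72% and 2.42% of all genes were. The part of these cells in the values of the members was not tested. Skeletal muscle, keratinocyte and adipocyte markers had 0 calls in any comparison.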

How the data were processed

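RNA was measured in 18 tumors (4 Balb/c CT, 4 Balb/c KD, 5 NSG CT and 5 NSG KD), grouped by their labels. The authors aligned ribosome-depleted, stranded, paired reads to mm10 with STAR 2.6.0c, removed low-quality and duplicate reads, and quantified RefSeq genes with Cufflinks 2.2.1. They deposited FPKM values transformed to log2(FPKM + 1), without counts. The 92 spike-ins listed among the genes were left out. Base 2 was checked because FPKM times length then summed to 1.04 to 1.06 times the expected total. Fragments per library were estimated from steps between low values (fragment length 160 nt), of which 35.3% to 44.8% lay within 0.1 of a whole number, so whole reads were not recovered and no count test was run.

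Differences were tested with limma 3.58.1 (trend, R 4.3.3) over genes averaging 0.1 FPKM or more in the compared tumors, with a pseudocount of 1 and Benjamini-Hochberg adjustment, and single members also with two-sided exact permutation tests of log2(FPKM + 1). Fold changes on this scale understate changes of genes under 1 FPKM. Where the reference group averaged under 1 FPKM, a lower call was not possible. The steps were tested on simulated data. Only genes at higher levels were changed there, and by a large step, so this does not cover members under 1 FPKM. The authors' own differential analysis used DESeq and was not used here. Python 3.11.15 read the files.

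The gene family and the lists were chosen with earlier results of these data known, and the members of the family then by symbol. Named genes are the 5 C-type isoforms, the 4 highest members per cluster by mean, every called member, the 2 largest changes in each direction per comparison, called genes of the lists and Atrx. Others named were chosen after their values were seen. Alternatives were a pseudocount of 0.1, median-ratio scaling, other filters, library weights, removal of the trend along transcript length, no fold threshold, a fit of all groups and leaving out each tumor. Removal of the length trend with a pseudocount of 0.1, its removal from the sums, and leaving out the 6 libraries with a slope over 0.1 were chosen after seeing the data. Sequence overlap was counted in 75-nt windows of the reference transcripts (GENCODE M21, GRCm38), in which Pcdha10 was not matched. No sequences are printed here.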

Additional observations from a re-analysis of the deposited data

Results flagged for a closer look

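In 76 sets of tumors (a named member or a cluster sum, within 1 group), the tumor farthest from the others was tested by its gap relative to the range of the group. Chance would give about 1 in 20 such sets if they were independent, and 8 were found, all with 1 of 2 tumors as the highest. The sets share tumors, the sums contain the members, and some members were named for large differences. The 8 therefore cannot be set against that rate. The NSG KD tumor of mouse 27 was far above its group for Pcdhb22 (log2 value 3.19, others 2.42 to 2.48), Pcdhga6 (3.15, others 2.29 to 2.49), the beta sum (74.9 FPKM, others 27.1 to 38.8), the gamma sum (103 FPKM, others 72.7 to 79.2) and the gamma sum without Pcdhgc3 (24.2 FPKM, others 12.1 to 13.7). The Balb/c KD tumor of mouse 56 was far above its group for Pcdhga11 (log2 value 1.43, others 0.42 to 0.49), Pcdhga12 (1.48, others 0.31 to 0.48) and Pcdhgb4 (1.67, others 0.67 to 0.80). The library slopes along transcript length were 0.13 for mouse 27 and 0.21 for mouse 56.

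For Pcdhb14 the KD tumors lay on opposite sides of the CT tumors in the 2 hosts, without a limma adjusted p under 0.05 in either host. Every KD tumor was below every CT tumor in Balb/c mice and above every CT tumor in NSG mice. The test of the difference of the effects gave -0.93 ± 0.20 (SE), with a limma adjusted p of 0.16, which missed the threshold.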

How the results depend on the processing

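No paired analysis was possible because the mouse numbers are not shared between groups. In NSG KD against CT tumors the count of members called, 1 as reported, was 3 with a pseudocount of 0.1 (1 lower and 2 higher), 4 with the adjusted p alone (1 lower and 3 higher), 6 with the length trend removed and a pseudocount of 0.1 (4 lower and 2 higher), and 0 with no filter, with library weights, with the length trend removed or with only the libraries of a length slope of at most 0.1. Over all genes the counts called were 68 as reported, 226, 994 and 271 under the first 3 of these, and 52, 201, 73 and 96 under the last 4. Where Pcdhb15 lost its call, its log2 fold change was 1.03 with no filter (limma adjusted p = 0.053), 0.87 with library weights (0.0055), 0.99 with the length trend removed (0.027) and 0.86 with only libraries of a slope of at most 0.1 (0.033). Leaving out each tumor gave 0 to 1. For the difference between hosts of the effect the count was 1 with library weights and otherwise 0. For hosts in CT tumors it was 3 with a pseudocount of 0.1 and with the adjusted p alone, and 2 with the length trend removed and a pseudocount of 0.1, beside 416, 472 and 439 of all genes against 212 as reported. In Balb/c KD against CT tumors, and for hosts in KD tumors, it was 0 under every alternative run.

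As the mean of log2(FPKM + 1) over the gamma members, the difference was -0.15 for NSG KD against CT tumors, where the summed FPKM differed by 16.9, and 0.16 between hosts in CT tumors, where it differed by 37.4 FPKM. The sum weights Pcdhgc3 most.

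The sign of the Pcdhgb7 difference in Balb/c KD against CT tumors turned with a pseudocount of 0.1 (-0.042), library weights (-0.28), both length trend and pseudocount changed (-0.0087) and only libraries of a slope of at most 0.1 (-0.28), and leaving out a tumor gave -0.35 (without mouse 56) to 0.33. Pcdhgc5 turned with library weights (-0.089) and ranged from -0.19 to 0.29 without 1 tumor. Without 1 tumor, the host difference of the effect on Pcdhgb7 ranged from -0.028 to 0.66, and the host difference of Pcdhga11 in CT tumors from -0.18 to 0.074.

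Depth limits alpha members and the first beta members, at or near the floor of 3 fragments. P-values measure the spread between animals of these cages only.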
